A study of Vitis vinifera with 6 samples.

Results

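The 5 genes described here are NAC transcription factors of grapevine (Vitis vinifera) linked to ripening and leaf ageing: CARPO, also called NAC60 (locus VIT_08s0007g07670), NAC33 (VIT_19s0027g00230), NAC11 (VIT_14s0108g01070), NAC13 (VIT_02s0012g01040) and NAC26 (VIT_01s0026g02710). They were chosen by locus name, with no filter on level but with earlier results of these data known. Each locus had 1 probe, so that 5 of the 34369 probes other than controls were members. The pairing of these gene names with the loci comes from knowledge of the grapevine NAC family outside the labels and files. Leaf transcripts were measured on 6 Agilent arrays with 1 dye (Cy3), 3 from control plants and 3 from plants labelled as overexpressing CARPO. All plants were of the cultivar Syrah (clone BVRC12), raised from anther callus and grown in a greenhouse in Verona, and all leaves were fully expanded. The promoter that drove the transgene, the transgenic line behind each array and any construct in the control plants are not given in the sources used here. The labels call the samples biological replicates without saying how plants or lines were shared among them, so p-values measure the spread between these samples.

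NAC proteins are transcription factors found only in plants. They bind DNA through a conserved domain at the N-terminal end and regulate transcription through a more variable C-terminal end. The family is known for its part in leaf senescence, in which chlorophyll is broken down and nutrients are moved out of the leaf, and in fruit ripening, where the tomato NAC gene NON-RIPENING is a well-known case. In grapevine, NAC33 is known for promoting loss of green colour in organs and for restraining vegetative growth, and NAC26 has been tied to berry size. The series title links CARPO to the start of organ maturation and of fruit ripening.

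A spot's intensity is the processed signal of the scanner file, already cleared of background within the array. A level is the log2 of that intensity over the 75th percentile of the array, so that 0 is the 75th percentile itself. The 75th percentile ran from 668 to 1234 in intensity over the 6 arrays, and the share of probes well above background on each was 68.4% to 74.5%. The file headers place the replicate 1 arrays of both groups in a first scan (scan 1). Labelled overexpression replicate 2 was scanned with the remaining 2 controls (scan 2), and labelled overexpression replicate 3 was alone in scan 3 and on its recorded slide. That array had 2103 spots marked as outliers, against 15 to 607 on the others, and the lowest share of probes well above background, 68.4%. Over the 18929 probes seen on all arrays, its Pearson correlation across probes with the other arrays was 0.810 to 0.854, where the 10 pairs without it gave 0.883 to 0.974. Fits and counts over the members are therefore given with and without that array. No member had an outlier spot on any array (0).

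NAC26, NAC33 and NAC11 lay above every control on each of the 3 arrays labelled overexpression, with fitted folds of 8.68, 7.28 and 5.78, while CARPO itself and NAC13 overlapped the controls. None of the members (0 of 5) passed the Benjamini-Hochberg adjusted p threshold of 0.05 in limma's test over 23752 probes, where 0.08% of all probes passed. At an unadjusted p under 0.05, 3 of the 5 were higher, where 5.85% of all probes were. The same 3 had groups that did not overlap with labelled overexpression higher, where 10.5% of 21507 probes did. A fitted difference of at least 4-fold upward was found for the same 3 of 5, and for 1.92% of all probes tested. The median fitted difference of the 5 members was 2.53 on the log2 scale, and all 5 were above 0, while the median of all probes tested was 0.0038, with 50.3% above 0.

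These counts rest in part on single arrays. Without labelled overexpression replicate 3, again 0 of 5 passed the adjusted threshold (0.415% of all probes) and 3 of 5 were higher at an unadjusted p under 0.05 (7.95%). At least 4-fold higher were then 2 of 5, NAC33 and NAC26, against 1.26% of all probes. The median difference of the members fell to 1.39, with 4 of 5 above 0 and CARPO below it, while the median of all probes was 0.05, with 54.0% above 0. The groups did not overlap at 4 of 5, NAC13 being added, where 19.8% of probes were higher without overlap. NAC11 lost its unadjusted limma p under 0.05 when control replicate 1, 2 or 3 was left out (0.0773, 0.0611 and 0.119). This brought the count to 2 of 5. Its fitted difference was then 2.64, 2.79 and 2.17, against 2.53 over all 6 arrays. The SE was 1.20, 1.17 and 1.16, against 0.98, so the p also rose where the difference did not shrink. These are counts over 5 genes chosen with earlier results of these data known, and no test of the group was made. In whole leaves, a change in the cells that make a transcript and a change in the transcript per cell cannot be told apart.

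**Figure D1:**
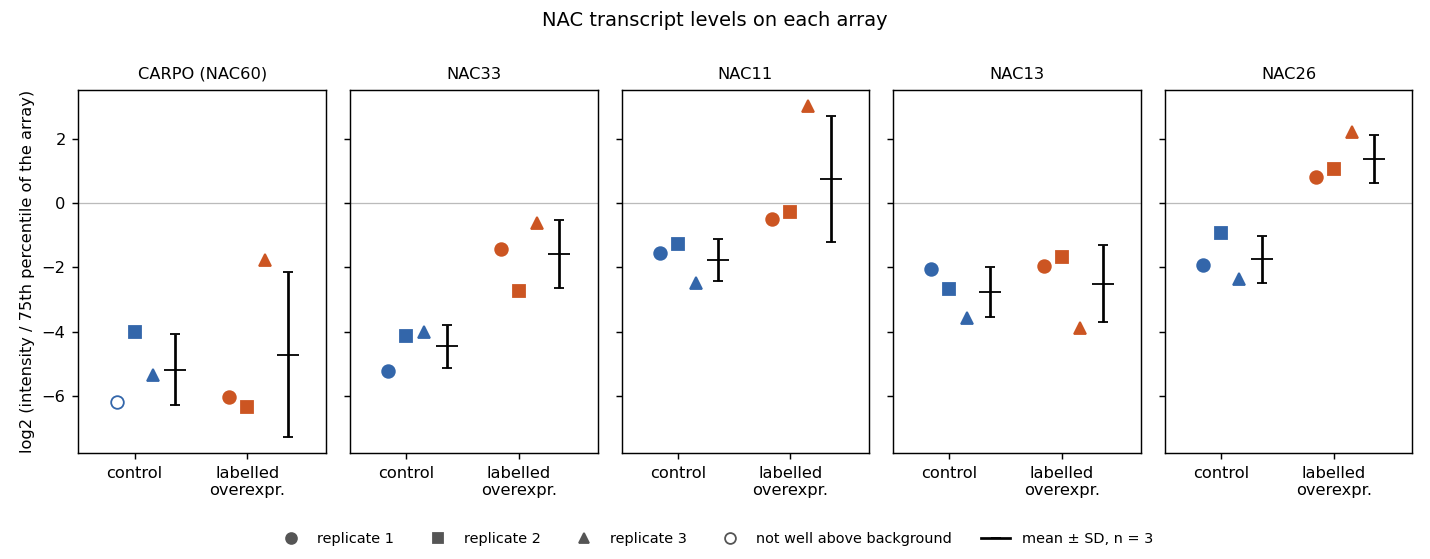
Level of each NAC gene on each array, as log2 of intensity over the array's 75th percentile; symbols mark replicates 1 to 3, the open symbol a spot not well above background, and bars the mean ± SD of 3 arrays. For NAC33, NAC11 and NAC26 every labelled overexpression array lies above every control, while for CARPO and NAC13 the groups overlap.

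CARPO is the gene that the plants were made to overexpress, so its probe was examined first as a check of the labels. In the controls, replicates 1 to 3 in turn, its intensity was 12.4, 50.4 and 25.3. In labelled overexpression replicates 1 to 3 it was 10.1, 15.1 and 271. The probe was thus high on 1 array, labelled overexpression replicate 3, and on the other labelled overexpression arrays it lay near or under the lowest controls. From the lowest level to the highest, the arrays were ordered as labelled overexpression replicate 2, control replicate 1, labelled overexpression replicate 1, control replicates 3 and 2, and labelled overexpression replicate 3.

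The CARPO spot was dim on 5 of the 6 arrays. The median spot intensity was 1.94 to 4.2 times the local background on the control arrays, and 2.09 and 2.25 times on labelled overexpression replicates 1 and 2. On labelled overexpression replicate 3 it was 16.7 times the local background. The scanner software's own error was 23.8% of the signal in control replicate 1, where the spot was not well above background, and 10.1% in labelled overexpression replicate 3. Differences among the 5 dim spots are thus measured less well than the step to the bright one.

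On labelled overexpression replicate 3, CARPO was 10.7-fold above the control mean, and 2.39% of the probes tested deviated at least as far upward on that array. On labelled overexpression replicates 1 and 2 its level was 0.85 and 1.16 log2 units under the control mean. In those arrays 14.0% and 7.55% of probes deviated at least as far downward. The limma difference over all 6 arrays was 0.47 (SE 1.31), with a 95% confidence interval of -2.71 to 3.65 and an adjusted p of 0.892. Both the control mean and this fit include control replicate 1, whose spot was not well above background. With that array left out the difference was -0.03 (95% interval -3.91 to 3.84). Without labelled overexpression replicate 3 the difference was -1.0 (95% interval -2.63 to 0.62, adjusted p 0.465). Within scan 2 it was -1.66, with 1 array against 2 controls. Within scan 1 the difference was 0.16, with 1 array a group, but the only control spot there was not well above background. By these intensities the probe does not bear out the label of labelled overexpression replicates 1 and 2. The bright spot of labelled overexpression replicate 3 goes with its label, but that array was alone in scan 3 and on its slide. With no control beside it, a difference of the plant there cannot be told apart from one of the array, slide or scan. All directions below are those of the label. Whether the probe matches the sequence of the transgene was not tested, since no probe sequence was used here.

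**Figure D2:**
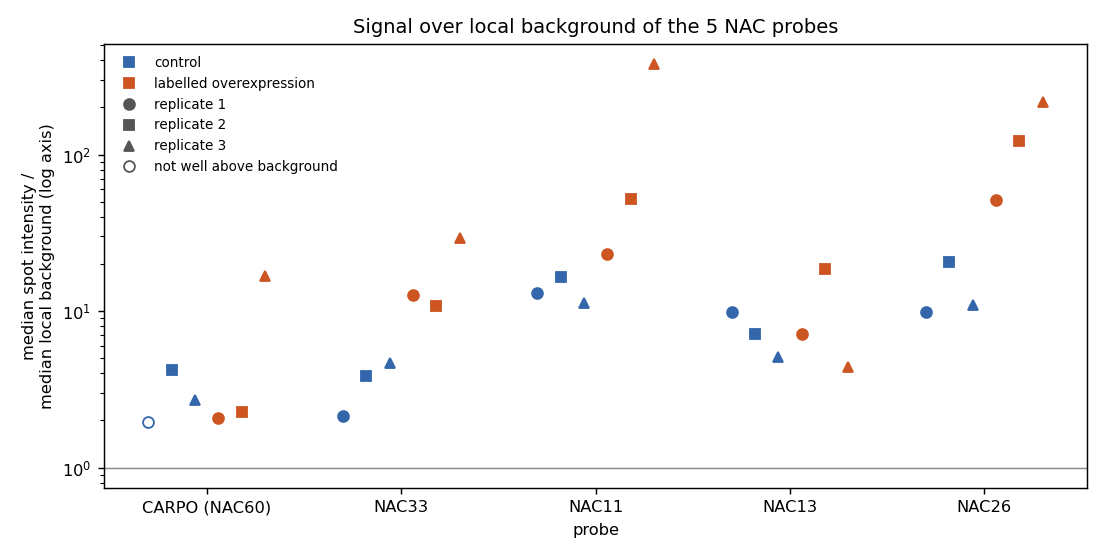
Median spot intensity over median local background for each NAC probe on each array, on a log axis, with controls in blue and labelled overexpression in orange. The CARPO spot is 1.94 to 4.2 times its background on 5 arrays and 16.7 times on labelled overexpression replicate 3, while the NAC26 spot reaches 218 times.

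NAC26 had the smallest p of the 5 members. Intensities of 239, 428 and 202 were read in the controls, replicates 1 to 3 in turn. Labelled overexpression replicates 1 to 3 gave 1174, 2613 and 4337. Every labelled overexpression array was above every control, with a gap of 1.75 log2 units between the lowest of the former and the highest of the latter. The control mean was -1.74 ± 0.73 and that of labelled overexpression 1.38 ± 0.75, both on the log2 scale of level (SD, n = 3 each).

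The limma difference for NAC26 was 3.12 (SE 0.52), an 8.68-fold higher level with a 95% confidence interval of 3.61-fold to 20.9-fold, and 0.926% of tested probes differed by more in either direction. It missed the threshold, with an adjusted p of 0.0984 and an unadjusted p of 0.000882. The exact permutation test over the arrays (two-sided) reached p = 0.1, which 3 against 3 cannot go below. The difference was larger than the spread of either group. Within scan 1, with 1 array a group, it was 2.74, and within scan 2, with 1 array against 2 controls, it was 2.73. Without labelled overexpression replicate 3, NAC26 was 6.45-fold higher (limma adjusted p 0.0777), and with array weights, which give that array the least weight, 5.17-fold (adjusted p 0.0967).

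Measured array by array, NAC26 was 5.88-fold, 7.08-fold and 15.7-fold above the control mean in labelled overexpression replicates 1, 2 and 3. On these arrays 1.05%, 0.282% and 1.54% of tested probes were at least as far above the control mean. Labelled overexpression replicate 3 thus had the largest fold for NAC26, but that array also scattered more widely over all probes. The central 90% of probes lay from -2.38 to 2.48 log2 units around the control mean there. In labelled overexpression replicates 1 and 2 they lay from -1.80 to 1.48 and from -1.39 to 0.93.

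NAC33, known for its part in leaf de-greening, was dim in the controls, with intensities of 24.4, 46.5 and 64.3, replicates 1 to 3 in turn. On the arrays labelled overexpression its intensity was 249, 186 and 597. All 3 were above all controls, by at least 1.28 log2 units. The spot was 2.14 to 4.63 times its local background in controls and 10.8 to 29.4 times on the arrays labelled overexpression, and it was well above background on all 6 arrays.

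The mean NAC33 level was -4.46 ± 0.67 in controls and -1.59 ± 1.06 (SD, n = 3 each) in the arrays labelled overexpression. The limma difference was 2.86 (SE 0.61), 7.28-fold with a 95% confidence interval of 2.60-fold to 20.3-fold, and was larger than the spread of either group. It did not pass, with an adjusted p of 0.136 and an unadjusted p of 0.00312, and the exact permutation test gave its smallest possible p of 0.1. Without labelled overexpression replicate 3 the fold was 5.21 (adjusted p 0.116). With background corrected by normexp, which adds an offset that compresses dim signals, the fold was 2.61 (adjusted p 0.754).

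The arrays labelled overexpression differed among themselves for NAC33. Replicate 1 was 8.20-fold, replicate 2 3.31-fold and replicate 3 14.2-fold above the control mean. Within scan 1 the difference was 3.80 log2 units and within scan 2 it was 1.34, with 1 array against 1 or 2 in each. At least as far above the control mean lay 0.596%, 1.18% and 1.73% of the tested probes on labelled overexpression replicates 1, 2 and 3.

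NAC11 was the member whose size depended most on 1 array among the 3 genes that separated the groups. Its controls, replicates 1 to 3 in turn, had intensities of 308, 341 and 183. In labelled overexpression replicates 1 to 3 the intensity was 476, 1023 and 7546. The groups did not overlap, but the lowest labelled overexpression array was only 0.77 log2 units above the highest control. On labelled overexpression replicate 3 the probe was 27.9-fold above the control mean, against 2.44-fold and 2.83-fold on replicates 1 and 2.

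The mean NAC11 level was -1.77 ± 0.64 in controls and 0.76 ± 1.97 (SD, n = 3 each) in the arrays labelled overexpression. The limma difference of 2.53 (SE 0.98) had a 95% confidence interval of 0.15 to 4.92, an adjusted p of 0.307 and an unadjusted p of 0.0408. Without labelled overexpression replicate 3 the fold fell from 5.78 to 2.63 (adjusted p 0.164), and without replicate 1 it was 8.90 (adjusted p 0.334). With scan as a block it was 2.60 (adjusted p 0.181), and the within-scan differences were 1.08 in scan 1 and 1.61 in scan 2. The exact permutation test again gave p = 0.1. On labelled overexpression replicate 3, 0.782% of tested probes were at least as far above the control mean as NAC11, while on replicate 1 this share was 6.82%.

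**Figure D3:**
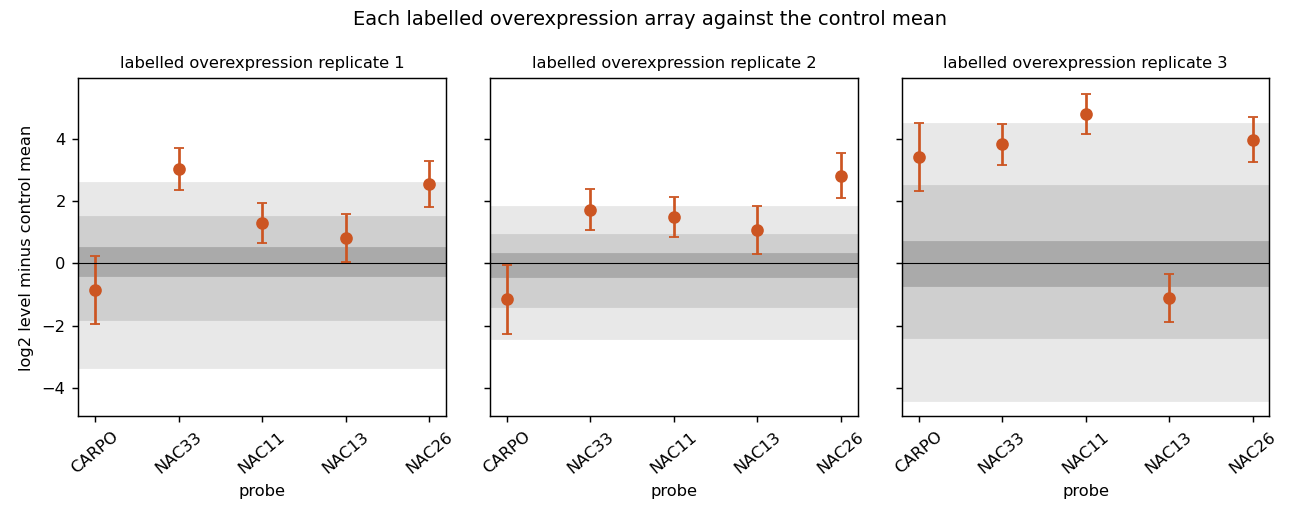
Level of each NAC gene minus its control mean (log2) on the 3 arrays labelled overexpression; error bars are the SD of the 3 controls, and the grey bands hold the central 50%, 90% and 98% of all probes tested on that array. The bands are widest for labelled overexpression replicate 3, where NAC11 lies at 4.80 and NAC13 at -1.12.

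NAC13 gave no separation of the groups over all 6 arrays. The controls read 219, 129 and 86.0 in intensity, replicates 1 to 3 in turn. Labelled overexpression replicates 1 to 3 read 173, 384 and 62.2. The lowest and the highest of the 6 levels were both on arrays labelled overexpression, with replicate 3 at the bottom and replicate 2 at the top. The limma difference was 0.26 (SE 0.69), smaller than the SD of 0.77 in controls and 1.20 in the arrays labelled overexpression. The adjusted p was 0.885, and the 95% confidence interval of the fold, 0.375 to 3.84, leaves room for a change in either direction. The exact permutation test gave p = 0.7. Labelled overexpression minus control was 0.11 in scan 1 and 1.44 in scan 2.

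NAC13 was the only member that was lower on labelled overexpression replicate 3 than on any other array. Of all probes with 6 usable spots, 32.7% were lowest on that array. The other 4 members were highest there, as were 29.1% of all probes. Labelled overexpression replicates 1 and 2 were 1.77-fold and 2.12-fold above the control mean for NAC13, and without replicate 3 the difference was 0.95 (95% confidence interval -0.23 to 2.14, limma adjusted p 0.353).

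NAC11 and NAC26 placed the 6 arrays in the same order, from control replicate 3 at the bottom through control replicates 1 and 2 to labelled overexpression replicates 1, 2 and 3. NAC33 had the same split of the groups with another order inside each: control replicates 1, 2 and 3, then labelled overexpression replicates 2, 1 and 3. The order of CARPO was unlike these, since labelled overexpression replicates 1 and 2 lay among or under its controls while NAC26 was 5.88-fold and 7.08-fold above the control mean on the same arrays. The difference between 2 members' responses was not tested.

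Spots around each member were read as a measure of local trends on the glass. Within 3 rows and 3 columns of a member, 25 to 29 other tested probes were found. On the arrays labelled overexpression, the median of these neighbours was -0.37 to 0.32 log2 units from the control mean. Around NAC11 on labelled overexpression replicate 3, where the gene itself was 4.80 above the control mean, the neighbours' median was 0.02. Around CARPO on that array it was -0.37, where the gene was 3.43 above. Around NAC26 the neighbours' median was 0.22, 0.18 and 0.27 on labelled overexpression replicates 1 to 3. Around NAC33 it was 0.32, -0.0016 and 0.28 on the same arrays. Neighbours cannot show a fault of the member's own spot, and local trends were not tested as a cause.

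**Figure D4:**
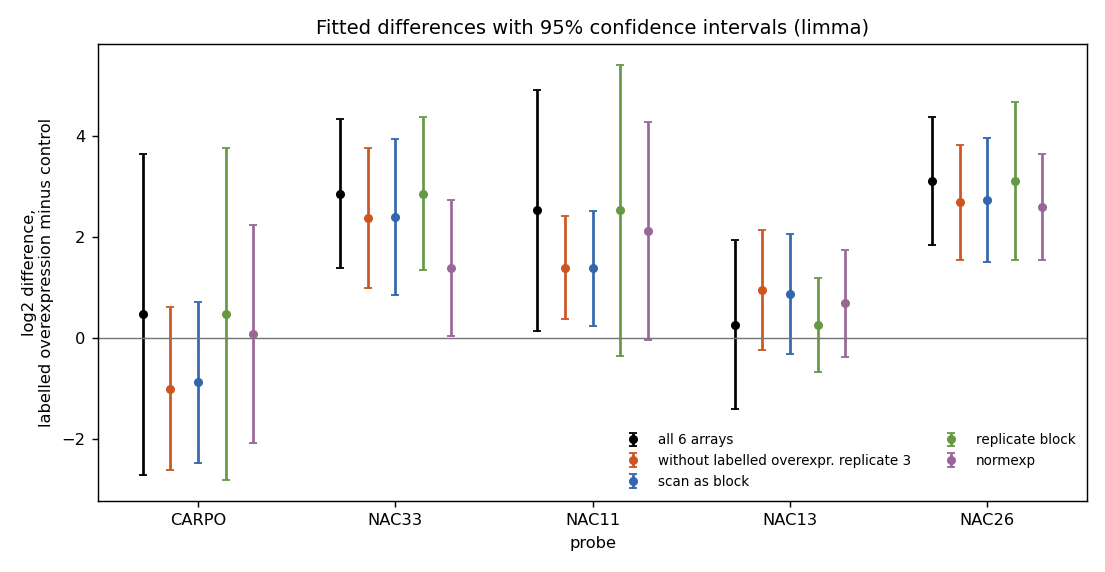
Fitted log2 difference, labelled overexpression minus control, for each NAC gene with its 95% confidence interval in limma, over all 6 arrays and in 4 other settings. NAC26 stays between 2.60 and 3.12 in these fits, NAC11 drops to 1.39 without labelled overexpression replicate 3, and CARPO is at -1.0 without that array.

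The probes whose levels followed CARPO most closely were sought among 18929 other probes seen on all 6 arrays, by Pearson's r over the arrays. This is a description of 6 arrays on which 1 array stands far from the rest, and carries no test. The highest r was that of VIT_00s0230g00090 (0.995, and 0.983 over the 5 arrays without labelled overexpression replicate 3), followed by VIT_00s0279g00100 (0.992 and 0.969). The lowest were those of VIT_05s0029g01220 (-0.998 and -0.991) and VIT_08s0007g08400 (-0.996 and -0.985). The 5 arrays are among the 6 on which these loci were picked, so the second value is no separate check. The CARPO spot was dim on all 5. In control replicate 1, which enters each r, it was not well above background.

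The probe of VIT_00s0230g00090 had intensities of 21.3, 32.7 and 31.2 in the controls, replicates 1 to 3 in turn. In labelled overexpression replicates 1 to 3 they were 14.9, 25.6 and 83.4, so that it too was highest on labelled overexpression replicate 3. The level of VIT_05s0029g01220 went the other way and was lowest there, at 0.08, against 0.49 to 0.90 on the other 5 arrays. In all, 66 probes (0.349%) had an r of at least 0.95 with CARPO. The counts for the other members, each over 18928 other probes, were 137 (0.724%) for NAC33, 356 (1.88%) for NAC11, 77 (0.407%) for NAC13 and 162 (0.856%) for NAC26. The reference gene table at hand lists no probe's locus name (0 matches), so these loci carry no gene name. For the same reason no wider list of NAC genes was used and the leaf label was not checked against leaf marker genes.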

How the data were processed

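Per the file headers, the deposited spot intensity came from Agilent Feature Extraction 10.5.1.1, with background removed array by array. In these spot intensities the arrays were not scaled to each other. A deposited table of processed intensity held 23065 probes, with 4 of the 5 members. CARPO was not analysed there, and 1 column of that table, of overexpression replicate 3, was not used. In the 5 columns used, the values were a constant multiple of the scanner signal, within 0.1%, at 99.8% to 99.9% of probes. The multiple fell as the array's 75th percentile rose. It was 1.40 in labelled overexpression replicate 1 (75th percentile 668) and 0.759 in replicate 2 (1234). This table is thus scaled much as in the main fit and is not a separate way of scaling.

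The log2 of the processed signal minus that of the array's 75th percentile was taken. Control spots were left out, and outlier spots, as marked by 0 or 1 in the deposited files, were missing, with at least 2 usable spots needed per group. Probes well above background on every usable array of at least 1 group (23752) were fitted with limma 3.58.1 in R 4.3.3 without covariates, and p-values were adjusted by Benjamini-Hochberg over all of them. A fit on simulated data was checked first. The members, lists and tests were chosen with earlier results of these data known. The named probes were the 5 members and the 2 highest and 2 lowest correlations with CARPO.

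Same-numbered arrays had correlations of deviations from the group means of 0.253, 0.0499 and -0.0149 across probes, within the -0.329 to 0.283 of other pairs, so the numbers were not taken to pair the samples. Alternatives were normexp (offset 50) on median spot signals, quantile or median scaling, other filters, outlier spots kept, another variance model, array weights, blocks, the processed table, and leaving out each array.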

Additional observations from a re-analysis of the deposited data

How the results depend on the processing

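No member passed the adjusted p threshold in limma under any of the alternatives run, and NAC33, NAC11 and NAC26 kept a positive difference in all 19 alternatives each. NAC26 ran from 2.37 (array weights) to 3.52 (without control replicate 2), with adjusted p from 0.0755 to 0.391. NAC33 ran from 1.39 (normexp) to 3.43 (without labelled overexpression replicate 2), with adjusted p from 0.0662 to 0.754. NAC11 ran from 1.38 (scan as a block) to 3.15 (without labelled overexpression replicate 1). For these 3 genes the groups are fully apart, which fixes the direction whichever array is dropped. The CARPO probe could not be fitted with the filter on all 6 arrays, nor in the processed table. Its difference of 0.47 reversed to -1.14 with array weights, -1.0 with slide as a block and -0.88 with scan as a block. Under both blocks labelled overexpression replicate 3 adds nothing to the difference. When 1 array was left out, CARPO ran from -1.0 (without labelled overexpression replicate 3) to 1.29, and was -0.03 without control replicate 1. NAC13 ran from -0.15 to 0.95 in such fits, and was -0.15 without control replicate 3, -0.15 without labelled overexpression replicate 2 and -0.02 without its replicate 1. The replicate block left the differences as they were (CARPO 0.47, NAC33 2.86, NAC11 2.53, NAC13 0.26, NAC26 3.12) and changed no member's side of the adjusted threshold, but NAC11 had an unadjusted p of 0.0723 under it. The count of members higher at an unadjusted p under 0.05 was 3 in 13 of the 19 alternatives and 2 in 6, NAC11 being lost each time. Beside the replicate block and the 3 fits without a control, these were normexp (0.0526) and array weights (0.0534). The alternatives overlap and are not separate lines of support. NAC26, for one, was 2.69 with slide as a block, in the processed table and without labelled overexpression replicate 3.

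The number of probes past the threshold, 19 over all probes, was 0 under normexp (1536 at an unadjusted p under 0.05), 0 with no filter on dim probes (3404) and 0 with the replicate block (3096). It was 7 with the filter on all 6 arrays, 228 with array weights, 94 in the processed table, 69 with slide and 45 with scan as a block. Leaving out 1 array gave 0 to 116. It was 0 without any control replicate or labelled overexpression replicate 1 (2087 to 2950 unadjusted), 116 without labelled overexpression replicate 2 and 101 without replicate 3. The cause was not tested. Normexp moved the median difference of all probes to 0.13, and dropping the filter moved it to 0.12. Dim spots limit CARPO in particular, whose spot was too dim in control replicate 1.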
